A study of Mus musculus with 2 samples.

Results

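Islet endothelial cells line the capillaries that run through the pancreatic islets. They were picked out here from droplet single-cell RNA data by 7 endothelial genes: a barcode with at least 500 detected genes and at most 10% mitochondrial UMIs was a member if Ins1 and Ins2 made up under 20% of its UMIs, at least 4 of Pecam1, Plvap, Flt1, Kdr, Egfl7, Emcn and Cdh5 were detected, and these 7 genes together had 10 or more UMIs. A UMI (unique molecular identifier) marks 1 captured RNA molecule. The rule found 312 cells among 10781 barcodes of good quality and 11048 barcodes in all. Endocrine cells, with which they are compared, were the 9192 other barcodes of good quality in which Ins1, Ins2, Gcg, Sst and Ppy held 20% or more of the UMIs.

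The cells come from 2 libraries of wild-type C57BL/6J mouse islets. The HFD library pooled 5 mice given a high-fat diet with 60% fat for 6 weeks from weaning, and the chow library pooled 4 mice on regular chow over the same time. Islets of both groups were hand-picked, cultured overnight and dispersed with 0.05% trypsin for 10 minutes before 10x 3' v2 capture. The cells of a pool cannot be assigned to single mice here, and with 1 library per diet, diet and library cannot be told apart. Every difference between HFD and chow below is therefore a difference between 2 libraries without a replicate check, and intervals cover counting error only.

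Islet capillaries are fenestrated: their thin walls have pores closed by diaphragms built from Plvap, which let glucose and hormones pass quickly. Beta cells release VEGF-A, which acts on the receptors Kdr and Flt1 of the endothelium and keeps the capillary bed dense, and the endothelium in turn lays down most of the islet basement membrane. Endothelial cells differ along a vessel: arterial cells use Notch signals, tip cells at a sprouting front make Esm1, Apln and Angpt2, and venous cells carry Ackr1 and Selp, through which leukocytes are captured.

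The HFD library held 127 members of 4394 barcodes of good quality, a share of 2.89% (exact Clopper-Pearson 95% interval 2.42 to 3.43%), and the chow library held 185 of 6387, a share of 2.90% (2.50 to 3.34%). The intervals overlapped almost completely. The share is one of recovered barcodes and does not measure vessel density. Members had a median of 6772 UMIs and 2582 genes in the HFD library and 7202 UMIs and 2646 genes in the chow library, while endocrine cells had a median of 15985 UMIs (HFD) and 13653 UMIs (chow). Mitochondrial genes held a median of 1.80% of the UMIs of HFD members and 1.37% of those of chow members. Of the 45 barcode sequences that occur in both libraries none belonged to members of both, and 2 members' barcodes occur in the other library.

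The rule left a clear gap at its UMI threshold. The fewest UMIs over the 7 genes in a member were 53 in the HFD library and 15 in the chow library, with medians of 106 and 95, and all 7 genes were detected in 123 of 127 HFD members and 165 of 185 chow members. No barcode had 8 or 9 UMIs over 4 or more of the genes, and 1 HFD barcode had 5 to 7. At the insulin threshold, 9 HFD and 12 chow barcodes met the endothelial conditions but held 20% or more insulin UMIs, with lowest values of 30.6% and 25.3%, while the highest insulin share of a member was 17.7% in the HFD library and 19.9% in the chow library. In endocrine cells, 85.8% of barcodes of each library had no UMI of the 7 genes.

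The genes used to choose the members are given as a description. Plvap, the diaphragm protein, stood at 2864 CPM (counts scaled to a total of 1000000 UMIs; exact Poisson 95% interval 2766 to 2966) in HFD endothelial cells and 2350 CPM (2274 to 2427) in chow endothelial cells, against 5.30 and 3.83 CPM in endocrine cells of the HFD and chow libraries. Emcn, a sialomucin of capillary and venous endothelium, had 3110 CPM in HFD and 2869 CPM in chow endothelial cells. Egfl7, a matrix factor secreted by endothelium, had 2732 CPM in HFD and 2502 CPM in chow endothelial cells. These 3 genes had a median of 22, 21 and 22 UMIs per HFD member and 18, 22 and 18 UMIs per chow member, in the order Plvap, Emcn, Egfl7.

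The VEGF receptor Flt1 had 2117 CPM in HFD and 1623 CPM in chow endothelial cells, and Kdr, the main signalling receptor, had 1900 CPM (1820 to 1982) in HFD and 1131 CPM (1078 to 1185) in chow endothelial cells. The junction proteins were less abundant as counted. Pecam1 had 965 CPM in HFD and 762 CPM in chow endothelial cells, and Cdh5 (VE-cadherin) had 827 CPM in HFD and 756 CPM in chow endothelial cells. Esm1, a secreted proteoglycan that is a given marker but not part of the rule, was the most abundant of the 8 with 3613 CPM in HFD and 3152 CPM in chow endothelial cells, and 94.5% of HFD and 90.8% of chow members had a UMI of it. Since 3' UMI counts do not scale with transcript length, these levels compare molecules captured. In endocrine cells each of the 8 genes stayed between 0.94 and 6.21 CPM in both libraries, and the given marker outside the rule, Esm1, separated the classes as far as the rule genes did.

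**Figure D1:**
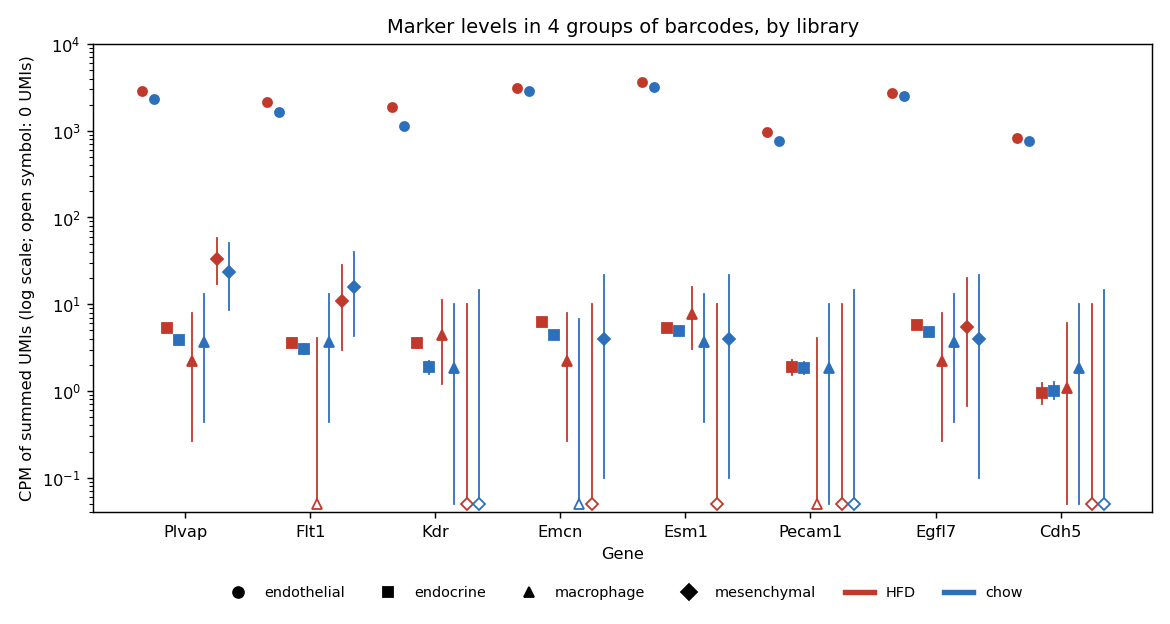
Levels of the 5 given markers and the 3 other rule genes in CPM of summed UMIs (log scale) in endothelial, endocrine, macrophage-marked and mesenchymal-marked barcodes, HFD left of chow. Lines are exact Poisson 95% intervals and open symbols stand for 0 UMIs drawn at the lower edge. Endothelial values lie between 756 and 3613 CPM, and those of the other groups at or below 33.0 CPM.

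Promoter sequences are shown for 2 of the strongest markers and for Kdr, the marker with the largest difference between the libraries. They run from 250 bases before to 50 bases after the RefSeq gene start (GRCm38.p6, gene strand, 5′ to 3′), and capitals mark CAGGAA on either strand, a common form of the site of ETS factors such as Erg, which reads TTCCTG on the opposite strand. Of the 8 genes, 5 matched the RefSeq table (Egfl7, Emcn, Esm1, Flt1 and Kdr).
Emcn, chr3:137340828-137341127, plus strand: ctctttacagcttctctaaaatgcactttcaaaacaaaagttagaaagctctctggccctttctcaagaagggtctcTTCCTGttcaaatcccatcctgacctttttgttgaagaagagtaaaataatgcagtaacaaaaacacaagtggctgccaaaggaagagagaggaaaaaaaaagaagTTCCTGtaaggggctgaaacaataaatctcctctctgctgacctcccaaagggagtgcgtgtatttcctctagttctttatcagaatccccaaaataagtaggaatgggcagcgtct
Esm1, chr13:113209409-113209708, plus strand: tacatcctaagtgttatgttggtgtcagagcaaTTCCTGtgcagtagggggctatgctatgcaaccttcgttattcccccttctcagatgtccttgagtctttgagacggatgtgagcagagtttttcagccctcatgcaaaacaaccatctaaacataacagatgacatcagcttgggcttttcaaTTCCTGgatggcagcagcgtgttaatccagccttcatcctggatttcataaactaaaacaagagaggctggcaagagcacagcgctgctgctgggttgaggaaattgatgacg
Kdr, chr5:75978406-75978705, minus strand: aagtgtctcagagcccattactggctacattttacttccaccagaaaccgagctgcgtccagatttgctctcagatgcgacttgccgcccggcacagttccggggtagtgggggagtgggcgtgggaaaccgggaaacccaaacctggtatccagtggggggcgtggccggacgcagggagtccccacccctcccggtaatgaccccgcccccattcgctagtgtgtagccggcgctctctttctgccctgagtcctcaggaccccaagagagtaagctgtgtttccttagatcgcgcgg
The Emcn window holds 2 matches, 173 and 67 bases before the start, and the Esm1 window 2, at 217 and 63 bases before it. Egfl7 had 2 matches as well in the best matching of its 3 listed windows, and Flt1 and Kdr had none in these letters. Other forms of the ETS site were not searched, so this does not show that Flt1 and Kdr lack one. Of 32851 promoter windows of the same length, 30.55% hold at least 1 match and 5.866% hold 2 or more. A match describes the sequence and is not a measured binding site.

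Beyond the rule, 2054 of 11919 genes measured in both libraries (17.2%) stood at least 4-fold higher in endothelial than in endocrine cells of both libraries, and 913 (7.66%) at least 4-fold lower. Within single libraries 20.3% of genes (HFD) and 20.6% (chow) were at least 4-fold higher, and 11.9% (HFD) and 10% (chow) at least 4-fold lower. Hormone RNA made up 3.09% (HFD) and 5.02% (chow) of endothelial UMIs, against 57.4% and 58.1% of endocrine UMIs in the HFD and chow libraries, and with totals that leave the 7 hormone genes out all these ratios shift by -1.19 (HFD) and -1.18 (chow) on the log2 scale. The counts are then 896 higher and 2083 lower. The ratios named next lie well beyond this shift.

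The most enriched genes over endocrine cells included transcription factors. Sox17, a factor of arterial fate, stood at a log2 ratio of 10.29 over endocrine cells in the HFD library and 9.92 in the chow library, and Erg, an ETS factor that maintains endothelial identity, at 9.76 and 9.75. Sox17 had 135 CPM in HFD and 232 CPM in chow endothelial cells, and Erg 179 CPM in HFD and 143 CPM in chow endothelial cells. In endocrine cells of both libraries the pair stayed at or below 0.23 CPM. Myct1, a membrane protein of endothelium, was detected in 100% of HFD and 96.2% of chow members (919 and 759 CPM).

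Surface and secreted proteins of the capillary wall made up most of the others. They were Cd34, a sialomucin, the sphingosine-1-phosphate receptor S1pr1, the tight junction protein Cldn5, the gap junction protein Gja1, the matricellular protein Sparcl1, Tmem204, the sulfotransferase Chst1, the solute carrier Slc43a3 and the small GTPase Gimap4, with log2 ratios between 9.24 and 10.48. Gpihbp1, which carries lipoprotein lipase to the capillary lumen, had 1549 CPM in HFD and 1738 CPM in chow endothelial cells and was detected in 85.8% of HFD and 80.5% of chow members. Igfbp3, a binding protein of insulin-like growth factors, had 2394 CPM in HFD and 3476 CPM in chow endothelial cells and was detected in 74.8% of HFD and 80.5% of chow members. Cldn5 was detected in the fewest members of these genes, with a UMI in 17.3% of HFD and 27.6% of chow members.

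Among the most abundant RNAs of the cells, apart from ribosomal, mitochondrial and hormone genes, were Malat1, Tmsb4x, Igfbp7, Eef1a1, Sparc, Actb, Tpt1, Ftl1 and Eif1. Of these, Igfbp7, a secreted angiomodulin, had 6715 CPM in HFD and 5897 CPM in chow endothelial cells, and Sparc, a collagen-binding matrix protein, 4351 CPM in HFD and 4178 CPM in chow endothelial cells. Sparc was 8.54 and 9.38 higher on the log2 scale than in endocrine cells. All 30 further endothelial markers of a list (Eng, Tie1, Robo4, Esam and others) stood at least 4-fold above endocrine cells in both libraries.

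Fabp4, a fatty acid carrier, had 2217 CPM in HFD and 2027 CPM in chow endothelial cells, with log2 ratios over endocrine cells of 9.03 and 8.83. Cd36, the fatty acid transporter of muscle and fat capillaries, had 3 UMIs in HFD members, all in 1 cell, and 0 UMIs in chow members. Lymphatic genes had few UMIs apart from Flt4, which fenestrated capillaries also carry. Prox1, which endocrine cells make at 22.9 CPM (HFD) and 18.4 CPM (chow), had 7 UMIs in HFD and 17 in chow members, Lyve1 0 and 2, and Pdpn, Ccl21a, Reln and Mmrn1 had none in either library. Genes of dividing cells were also scarce, with 0 UMIs of Mki67 in HFD and 1 in chow members and 1 and 0 UMIs of Top2a.

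RNA of other islet cells was present in the members. Every member had UMIs of Ins1 and Ins2, with quartiles of 1.42 and 3.01% of UMIs in HFD members and 1.65 and 2.84% in chow members, and the summed insulin level was 5.12% of that of endocrine cells in HFD and 5.00% in chow. Endocrine RNA at these ratios would make up 0.00947% of the Plvap level in HFD and 0.00815% in chow members, and 4.37% of the Fos level in HFD members and 9.47% in chow members. Hormone totals differed more than insulin: the 7 hormone genes summed to 30856 CPM in HFD and 50156 CPM in chow members, with Ppy at 832 CPM in HFD and 11574 CPM in chow members, where 5 cells held 92.8% of its UMIs. Chow members included 3 barcodes in which the 5 hormones reached 20% of UMIs and HFD members 0.

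Markers of the other classes were low over the members as a whole. The 10 macrophage genes summed to 66.4 CPM in HFD and 51.4 CPM in chow members, of which Fcer1g alone held 44.0 and 39.8, with Adgre1, Csf1r, Ptprc and C1qc at 0 UMIs in both libraries. The 10 mesenchymal genes summed to 131 CPM in HFD and 155 CPM in chow members, with Col1a1 and Pdgfra at 0 UMIs in both, and to 38.8 and 32.3 CPM without clusters 4 and 5 (described next). The 7 ductal genes summed to 264 CPM in HFD and 1094 CPM in chow members, nearly all of it Spp1, and Krt19, Sox9 and Cftr had 0 UMIs in both. The 12 acinar genes summed to 9.87 CPM in HFD and 34.0 CPM in chow members, the 6 Schwann cell genes to 11.7 and 11.6, the 7 genes of erythrocytes and platelets to 5.38 and 4.50, and the 7 lymphocyte genes to 0 and 1.93.

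Clustering of the 312 members on their own gave 5 groups, each with cells of both libraries in differing shares. Cluster 1 held 32.3% of HFD and 41.6% of chow members, and cluster 2 20.5% of each. Cluster 3 held 37.8% of HFD members (29.3 to 46.8%) and 22.7% of chow members (16.9 to 29.4%). HFD to chow ratios over all members therefore mix these shares with levels within clusters, and the part of each was not tested. Their leading genes made the clusters and are given as a description. Cluster 1 (118 cells) was led by the tip-cell genes Apln (236 CPM, against 26.7 CPM in the other members), Pgf and Trp53i11, with Kit, Kcnj8 and Cldn5. It has no name here, since Esm1 and Angpt2 of the tip-cell list were higher in cluster 3. Cluster 3 (90 cells) was led by Gja4 (219 against 59.3 CPM), Hey1 and Sema3g of the arterial list, with Dkk2 and Smad6. The arterial list summed to 1937 CPM in cluster 3, against 1303 CPM in cluster 1 and 1047 CPM in cluster 2. Cluster 3 has no name here, since Cxcl12 of that list had 23.8 CPM in it and 236 CPM in cluster 2. Cluster 2 (64 cells) was led by Selp (441 against 1.78 CPM), Lrg1, Aplnr, Cxcl12 and Icam1 and has no name here, since only Selp and Lrg1 of the venous list were among its leading genes.

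Esm1 had 3860 CPM in HFD and 3645 CPM in chow cells of cluster 1, 4859 CPM in HFD and 5184 CPM in chow cells of cluster 3, and 1567 CPM in HFD and 1124 CPM in chow cells of cluster 2. Angpt2 had 799 CPM in HFD and 580 CPM in chow cells of cluster 1, and 1014 CPM in HFD and 612 CPM in chow cells of cluster 3. Gpihbp1 followed another order, with 2367 CPM in HFD and 2763 CPM in chow cells of cluster 1, 1441 and 1519 CPM in cluster 3, and 435 and 253 CPM in cluster 2. Igfbp3 was likewise highest in cluster 1, with 3750 CPM in HFD and 6129 CPM in chow cells, against 269 and 389 CPM in cluster 2. The arterial connexin Gja5 had 0 UMIs in HFD and 1 UMI in chow members.

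Clusters 4 and 5 carried RNA of other cells beside the endothelial genes and have no name. Cluster 4 (28 cells) was led by Igfbp5, Pdgfrb, Mgp, Des and Spp1, genes of pericytes and other mesenchymal cells, and cluster 5 (12 cells) by Rbp4, Epcam, Meg3, Chgb and Scg5 of endocrine cells. Median UMIs were 15107 in HFD and 13085 in chow cells of cluster 4, and 27165 in HFD and 14591 in chow cells of cluster 5, against 5616.5 to 7913 in HFD and 5985.5 to 7542 in chow cells of clusters 1 to 3. Of the 7 HFD and 6 chow members among the top 5% of doublet scores of their library, 5 lay in cluster 4 and 4 in cluster 5, and in 11 of 12 cells of cluster 5 the hormones exceeded 5% of UMIs.

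**Figure D2:**
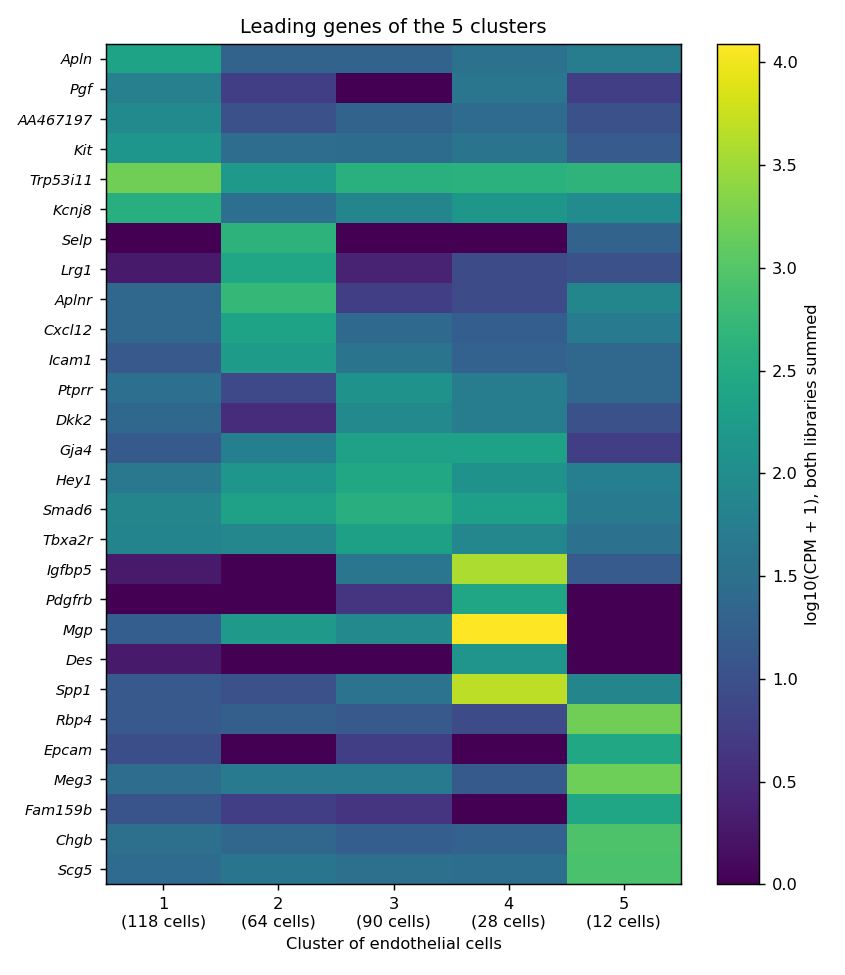
Levels of leading genes of each of 5 clusters of endothelial cells, as log10(CPM + 1) of UMIs summed over both libraries, with the number of cells under each column. Mgp reaches 12289 CPM in cluster 4 and Rbp4 1575 CPM in cluster 5.

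HFD members were next set against chow members. Ratios are log2 of CPM of summed UMIs with 0.5 counts added, given relative to the median of the 5973 genes with a summed count of 50 or more, which itself was 0.06. Of these genes 45 (0.753%) were at least 2-fold higher and 67 (1.12%) at least 2-fold lower in HFD members, 1.88% in all. Without clusters 4 and 5, which left 115 HFD and 157 chow cells, the counts were 46 (0.871%) and 30 (0.568%) of 5282. In endocrine cells 98 of 12733 genes (0.77%) were at least 2-fold higher and 181 (1.42%) at least 2-fold lower, and over the 5973 genes measured in members the shares were 0.72% and 1.39%. The exact interval of the ratio lay wholly above the median for 615 genes (10.3%) and wholly below it for 649 (10.9%). These intervals treat UMIs as independent, and are too narrow where few cells hold most UMIs of a gene.

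The genes with the highest ratios in HFD members included transcription factors and capillary genes. Btnl9, a butyrophilin-like surface protein, had 169.6 CPM (146 to 196) in HFD and 43.7 CPM (33.9 to 55.4) in chow members, a relative log2 ratio of 1.89 (1.49 to 2.32). Maf, a basic leucine zipper factor, had 66.4 CPM in HFD and 21.2 CPM in chow members (1.57, 0.98 to 2.22). Btnl9 and Maf had at most 0.30 CPM in endocrine cells.

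The immediate early factors Fos and Fosb, which cells induce within minutes of many stimuli, stood at 1.80 (1.60 to 2.02) and 2.54 (1.87 to 3.33). Fos had 596 CPM in HFD and 163 CPM in chow members, and Fosb 83.5 CPM in HFD and 13.5 CPM in chow members. Both were higher in HFD endocrine cells too, at 0.54 and 0.80 relative to the endocrine median. Macrophage-marked barcodes had 1648 CPM of Fos in the HFD and 474 CPM in the chow library, and mesenchymal-marked barcodes 895 and 157 CPM, so a difference in this direction was seen in each of 4 cell groups.

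The remaining 7 of the 11 highest ratios reported here lay between 1.06 and 1.35. They were Susd6, Filip1l, Ptprg (a receptor tyrosine phosphatase), Slc6a6 (the taurine transporter), Sema3g (a semaphorin of arterial endothelium), Kcnj2 (an inward rectifier potassium channel) and Ppp1r16b (a regulatory subunit of protein phosphatase 1 found in endothelium). Sema3g had 77.2 CPM in HFD and 30.8 CPM in chow members, a relative log2 ratio of 1.26 (0.74 to 1.80). Without clusters 4 and 5 its value was 0.81 (0.20 to 1.44), the only one of the 11 to drop below 2-fold there.

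The lowest ratios included genes of the venous list. Lrg1, a secreted glycoprotein of venules, had 8.97 CPM (4.30 to 16.5) in HFD and 70.7 CPM (58.1 to 85.2) in chow members (-2.98, -4.14 to -2.11). Selp, the selectin that captures leukocytes, had 21.5 CPM in HFD and 107 CPM in chow members (-2.35, -3.06 to -1.76). Both came from few cells: Selp was detected in 2 of 127 HFD and 12 of 185 chow members, with 24 and 167 UMIs, and 5 of the chow cells held 89.2% of the chow UMIs. Ackr1, the chemokine receptor of venules, had UMIs in 0 of 127 HFD members, which allows a share of cells with a UMI of up to 2.36% (3 counts of 127), and 18 UMIs in 4 of 185 chow members. Members with 3 or more UMIs over Selp, Ackr1, Lrg1 and Vwf numbered 3 of 127 in the HFD library (2.36%, 0.490 to 6.75%) and 17 of 185 in the chow library (9.19%, 5.44 to 14.3%). These intervals overlap, which does not show that the shares agree, and the difference was not tested. The 4 genes were picked from the 9 of the venous list, and all 4 were lower in HFD members. Over all 9 genes, 110 HFD and 169 chow members had 3 or more UMIs. Lrg1 was also lower in HFD endocrine cells, at -2.84, with 0.76 CPM in HFD and 4.86 CPM in chow endocrine cells.

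Cebpb, a basic leucine zipper factor of stress and inflammation, differed across more cells. It had 54.7 CPM (41.9 to 70.3) in HFD and 207 CPM (185 to 231) in chow members (-1.97, -2.40 to -1.59) and was detected in 28.3% of HFD and 58.9% of chow members. In endocrine cells its relative ratio was -1.30. Hspa1a, the inducible Hsp70, had 76.3 CPM in HFD and 212 CPM in chow members (-1.53, -1.90 to -1.19), while endocrine cells had 5.76 CPM in HFD and 60.0 CPM in chow, a relative ratio of -3.56. Cldn5 had 117 CPM in HFD and 238 CPM in chow members (-1.09, -1.39 to -0.80). Mif, a cytokine, stood at -0.95 in members and at -1.19 in endocrine cells.

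Other genes with low ratios were Pfkl (liver-type phosphofructokinase, -1.30), Tinagl1 (a matrix protein, -1.15), Zfp513 (-1.11), Tuba1c (a tubulin, -1.08) and Shmt2 (the mitochondrial serine hydroxymethyltransferase, -1.07). Tuba1c was at -0.87 without clusters 4 and 5. Apart from Tuba1c and Cldn5 (-0.99, -1.31 to -0.70), the named lower genes, Mif included, were at least 2-fold lower in clusters 1 to 3.

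**Figure D3:**
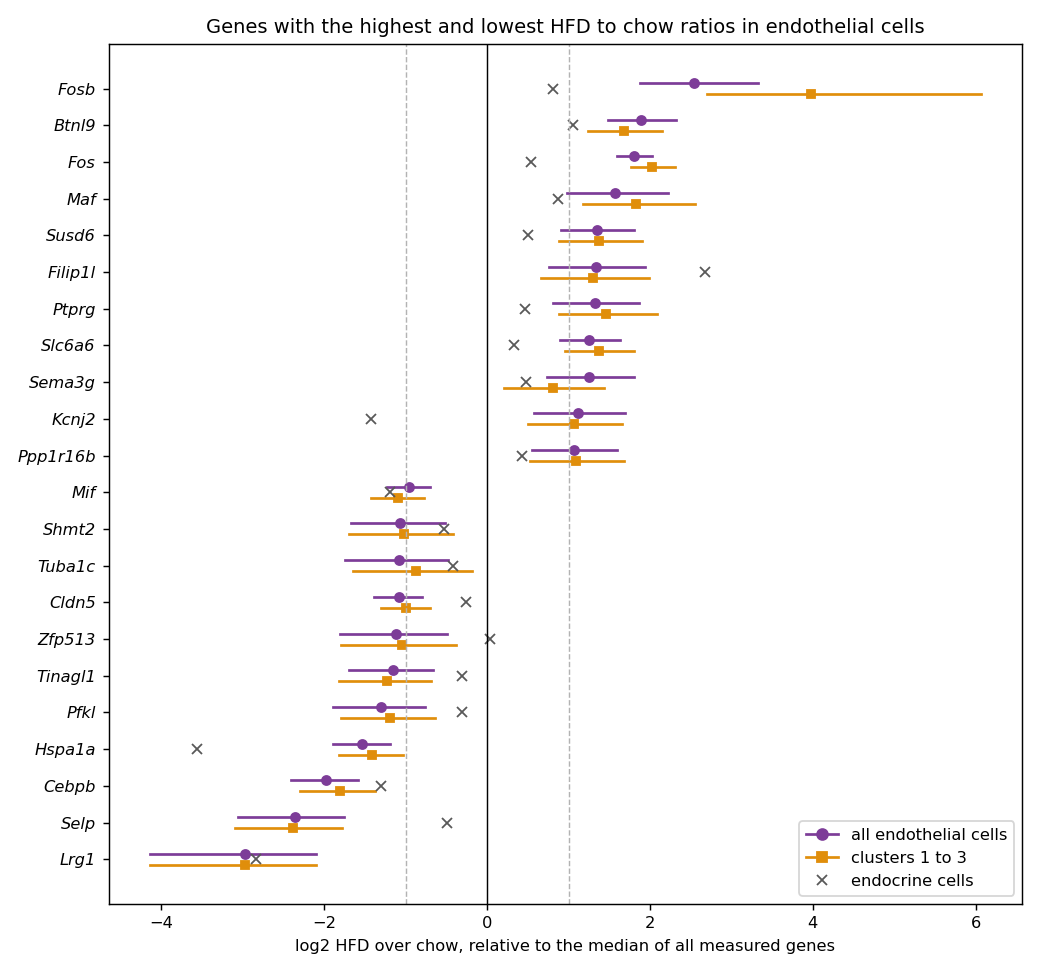
Relative log2 ratio of HFD over chow for the 11 highest and 11 lowest genes reported here, in all endothelial cells (circles), in clusters 1 to 3 (squares) and in endocrine cells (crosses), with exact conditional 95% intervals of both endothelial ratios. Dashed lines mark 2-fold. Among others, Fos and Fosb are above 0 and Lrg1, Hspa1a, Cebpb and Mif below it in endocrine cells as well. Some endocrine crosses rest on few UMIs (Btnl9 at most 0.30 CPM).

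Within clusters 1 to 3 the direction of these genes was read where a gene had 10 or more UMIs over both libraries in the cluster. The genes were chosen by their ratios over all members, most of which lie in these clusters. A shared sign was therefore likely from the start and is a description, not a separate check. In clusters 1 and 3, all 11 higher genes and all 9 counted lower genes had the same sign as in all members. In both clusters Lrg1 and Selp had at most 1 UMI. In cluster 2, 7 of 7 counted higher genes and 10 of 10 counted lower genes had the same sign. Fewer were past 2-fold: 10 higher and 4 lower genes in cluster 1, 6 and 7 in cluster 2, and 8 and 4 in cluster 3. In cluster 3 Sema3g stood at 0.03 (-0.75 to 0.81) and Slc6a6 at 0.08 (-0.81 to 1.00), with intervals on both sides of 0. Fos stood at 2.12 (1.71 to 2.56) in cluster 1, 2.05 (1.53 to 2.62) in cluster 2 and 1.84 (1.39 to 2.34) in cluster 3. Cebpb stood at -1.83, -2.12 and -1.38 in the same clusters. Cldn5 was uneven, at -0.24 (-0.57 to 0.08) in cluster 1 and -3.18 (-4.99 to -1.97) in cluster 3, while in cluster 2 HFD cells had 0 and chow cells 47 UMIs of it. Of the 370 Cldn5 UMIs of chow members, 47 lay in the 17 cells with 3 or more UMIs over Selp, Ackr1, Lrg1 and Vwf.

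Shares of cells with a UMI are given at matched depth for some of the named genes. They rest on the same UMIs by which these genes were chosen. A shared direction is therefore a description here too, not a separate check. With each cell thinned to 4000 UMIs, which kept 127 HFD and 182 chow members and left out 3 shallower chow members, Btnl9 was detected in 44.9% of HFD members (exact interval 36.1 to 54.0%) and 15.4% of chow members (10.5 to 21.5%), and unthinned in 52.8% and 25.9%. Thinned endocrine cells, which should lack it, had a UMI in 0.0543% (HFD) and 0.0730% (chow). Cebpb was detected in 13.4% of thinned HFD and 50.5% of thinned chow members. Plin2, the coat protein of lipid droplets, was detected in 60.6% (51.6 to 69.2%) of thinned HFD and 39.6% (32.4 to 47.1%) of thinned chow members, against 2.25% and 1.64% of thinned endocrine cells. Susd6 was detected in 31.5% of thinned HFD and 16.5% of thinned chow members, and in 8.10% and 4.60% of thinned endocrine cells. For Slc6a6 these shares were 32.3% and 21.4% of members and 33.5% and 25.8% of endocrine cells, so both genes differed in the same direction there. Not all named genes were set apart in this way. The thinned intervals of HFD and chow members overlapped for Kcnj2 (11.8 to 25.9% in HFD, 7.29 to 17.1% in chow) and Cldn5 (6.76 to 18.7% in HFD, 17.2 to 29.9% in chow). They also overlapped for Slc6a6, Maf, Shmt2, Tinagl1 and Tuba1c, among others.

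The receptors through which VEGF and angiopoietins act, of which Kdr and Flt1 are also rule genes, were higher in HFD members. All 8 of the list had a ratio above the median of all genes (50% of genes by definition), and for 7 the exact interval lay wholly above it (10.3% of all genes), with a list median of 0.61. Without Kdr and Flt1, 6 of 6 were above the median, 5 with intervals wholly above it, and the list median was again 0.61. Other endothelial genes leaned the same way by less. Of the 7 rule genes 7 were above the median, 4 with intervals wholly above it, with a list median of 0.22. Among the 30 further endothelial markers, which include Ptprb and Tek, 15 intervals lay wholly above the median and 4 wholly below. Kdr stood at 0.69 (0.59 to 0.78), Ptprb, the phosphatase that dampens Tek signals, at 0.68 (0.46 to 0.91), Tek, the angiopoietin receptor, at 0.65 (0.15 to 1.16), and Nrp1, a co-receptor of VEGF, at 0.58 (0.47 to 0.68). Flt1 was at 0.32 (0.24 to 0.40). None of the 8 reached 2-fold. Nrp1 had 1394 CPM in HFD and 896 CPM in chow members, and Ptprb 322 CPM in HFD and 192 CPM in chow members.

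Kdr and Nrp1 were higher in HFD cells of each of clusters 1 to 3. Kdr was at 0.62 in cluster 1, 0.81 in cluster 2 and 0.46 in cluster 3, and Nrp1 at 0.56, 0.60 and 0.60, with exact intervals that did not reach 0. The list median was 0.56 over clusters 1 to 3. Of 8 ligand genes, 3 were measured: Angpt2, the angiopoietin of remodelling vessels, had 724 CPM in HFD and 544 CPM in chow members (0.35, 0.21 to 0.49), Apln was at 0.08 and Pgf at -0.65 (-1.41 to 0.05). Vegfa had 18 UMIs in HFD and 26 in chow members, and in endocrine cells, its main source, 57.7 CPM in HFD and 46.0 CPM in chow.

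Basement membrane genes were higher as a list, 11 above and 2 below the median, with a list median of 0.38, and 9 of 13 intervals wholly above it. The collagen IV chains Col4a1 and Col4a2 had 835 and 1275 CPM in HFD members and 520 and 874 CPM in chow members (0.62, 0.48 to 0.76, and 0.48, 0.38 to 0.59). Nid2 stood at 0.74, Nid1 at 0.55 and Col15a1 at 0.62, while Sparc, the most abundant member, was at -0.003 (-0.06 to 0.05). In endocrine cells, where the listed genes summed to 31.7 CPM (HFD) and 21.6 CPM (chow), against 8944 and 7315 CPM in members, the list median was 0.36.

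Of the BMP and TGF-beta genes 10 of 12 were above the median, with a list median of 0.36 (0.31 in endocrine cells), among them the receptors Bmpr2 (0.73), Acvrl1 (0.49) and Eng (0.38) and the inhibitor Smad7 (0.67). The targets Id1 and Id3 were at 0.11 and -0.16. Notch genes were above the median in 6 of 8, with a list median of 0.25, led by the ligand Dll1 (0.80) and the target Hey1 (0.62), with Hes1 at -0.09. Angiocrine genes, whose products act on neighbouring cells, were above the median in 13 of 17 (list median 0.34). The TRAIL gene Tnfsf10 (1.19), Cxcl12 (0.96) and the endothelin gene Edn1 (0.71) were highest among those with 50 counts, and Cyr61, a YAP target, was at -0.83.

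**Figure D4:**
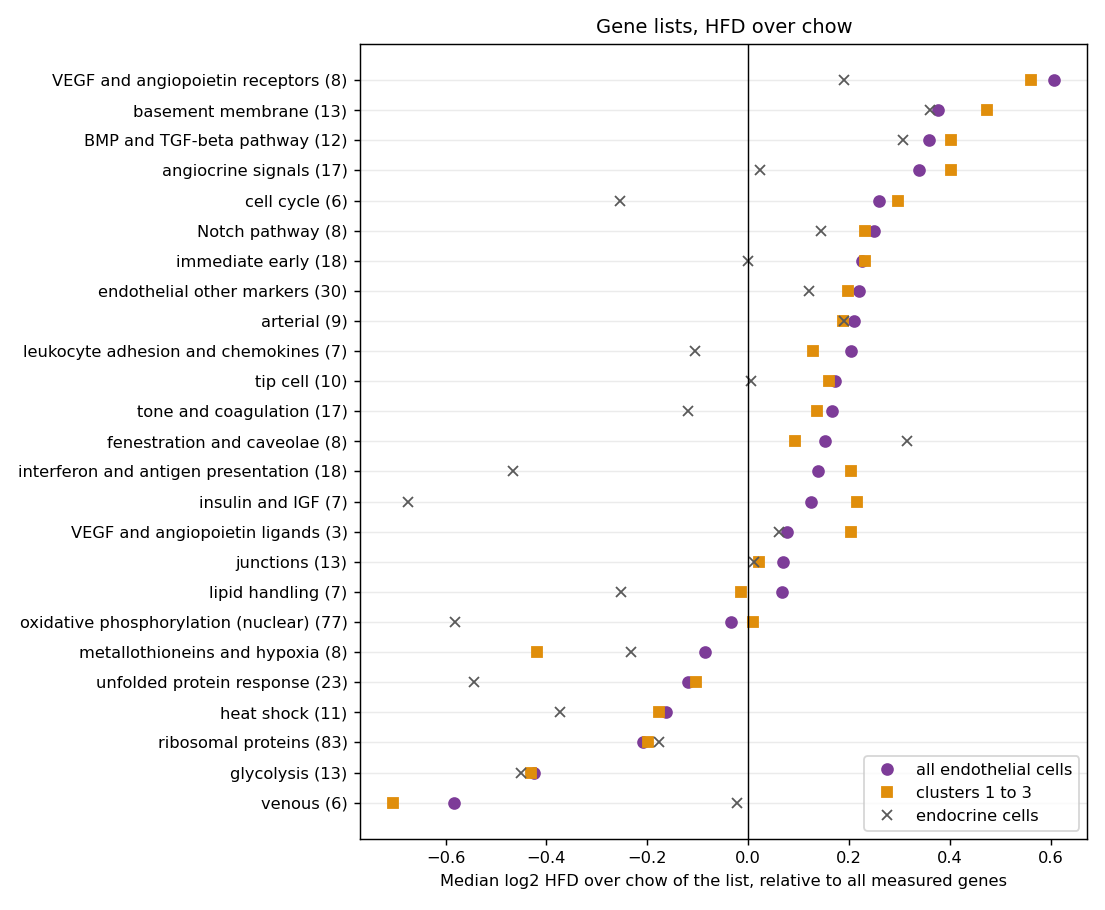
Median relative log2 ratio of HFD over chow for each gene list with 3 or more measured members (number in brackets), except the rule genes, hormones, sex-linked genes and markers of other cells, in all endothelial cells (circles), clusters 1 to 3 (squares) and endocrine cells (crosses). Of the lists drawn, VEGF and angiopoietin receptors lie at the top with 0.61 and venous genes at the bottom with -0.58 in endothelial cells.

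Other lists of vessel biology lay nearer to the median. The further endothelial markers had 24 of 30 above the median and a list median of 0.22, the arterial list 8 of 9 and 0.21, the tip-cell list 8 of 10 and 0.17, genes of tone and coagulation 13 of 17 and 0.17, fenestration and caveola genes 6 of 8 and 0.15, and junction genes 9 of 13 and 0.07. Of the 6 further markers below the median, Cldn5 was lowest, followed by Sox17 (-0.84, -1.13 to -0.57). The endothelin receptor Ednrb, with 1708 CPM in HFD and 1136 CPM in chow members, was at 0.53 (0.43 to 0.62). Leukocyte adhesion genes had 6 of 7 above the median, Icam1 at 1.04 (0.50 to 1.60), with Selp the exception. The venous list had 2 of 6 above and 4 below, with a list median of -0.58, set by Lrg1, Selp, Vwf (-0.60, -1.46 to 0.19) and Ctla2a. Ctla2a was detected in 96.9% of HFD and 96.8% of chow members, so it did not mark the few cells with Selp, and had 1931 CPM in HFD and 2743 CPM in chow members (-0.57, -0.64 to -0.49).

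Lipid and growth factor genes went both ways. Of 7 measured lipid genes 4 were above and 3 below the median (list median 0.07), and without clusters 4 and 5, 3 were above and 4 below (-0.01). Cpt1a, the gate of fatty acid oxidation, was at 1.06 (0.38 to 1.78), Plin2, with 233 CPM in HFD and 128 CPM in chow members, at 0.80 (0.53 to 1.07), Fabp4 at 0.07, Gpihbp1 at -0.23 and Fabp5 at -0.88 (-1.16 to -0.61). Cpt1a was at 0.88 in endocrine cells and Plin2 at 0.24. In the insulin and IGF list, 4 of 7 were above the median (0.13), a list median that ranged from -0.49 to 0.44 over the processing alternatives and so has no settled direction. Its members included the insulin receptor gene Insr at 0.60 (0.16 to 1.04), the glucose transporter Slc2a1 at -0.75 and Igfbp3 at -0.60 (-0.67 to -0.53).

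Immediate early genes had 16 of 18 above the median, with a list median of 0.23, and besides Fosb and Fos the highest was Atf3 (0.83, 0.42 to 1.25), with Junb at 0.05 and Dusp1 at 0.13. Glycolysis genes were below the median in 11 of 13, with a list median of -0.43, and those with most UMIs were Gapdh (-0.67, 1241 CPM in HFD and 1889 CPM in chow members), Pkm (-0.42) and Aldoa (-0.43). Endocrine cells gave -0.45 for the same list. The hypoxia-linked Ddit4 (-0.71) and Hmox1 (-0.61) were lower too, in a list of metallothionein and hypoxia genes with 4 above and 4 below the median (-0.09, and -0.42 without clusters 4 and 5).

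For 3 further lists the members stood nearer to the median than endocrine cells did. Nuclear genes of oxidative phosphorylation had 34 above and 43 below the median with a list median of -0.03 in members (0.01 without clusters 4 and 5), against -0.58 in endocrine cells. The unfolded protein response had 8 of 23 above (-0.12, against -0.54), and interferon and antigen presentation genes 11 of 18 above (0.14, against -0.47). B2m, a subunit of class I antigen presenting complexes, had 2788 CPM in HFD and 2313 CPM in chow members (0.21), and in endocrine cells 55.7 CPM in HFD and 100.1 CPM in chow (-1.03). With 1 library per diet the difference between cell types was not tested. Heat shock genes had 2 of 11 above (-0.16, against -0.37 in endocrine cells), and ribosomal protein genes 15 of 83 above (-0.21, against -0.18). Cell cycle genes had 5 of 6 measured members above the median (0.26), led by the replication genes Pcna (0.49, 0.03 to 0.95) and Mcm6 (0.47).

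Endocrine genes and the measured genes of the ductal list were lower in HFD members, in part through clusters 4 and 5. All 8 measured endocrine genes other than hormones were below the median, at -1.32, with Ttr at -2.28 and Chga at -1.20, and the hormones at -0.90. Without clusters 4 and 5 these medians were -0.70 and -0.35. The ductal list, Spp1 and Krt7, was at -1.70, and of the 265 HFD and 1637 chow UMIs of Spp1, clusters 1 to 3 held 6 and 33. A single chow cell held 697 of them. Spp1 was not particular to ductal cells here, with 9000 CPM (HFD) and 7615 CPM (chow) in mesenchymal-marked barcodes. The Y-linked genes Ddx3y (0.19) and Eif2s3y (-0.26) were near the median and Xist had 0 UMIs in members of both libraries.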

How the data were processed

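Islet cells were profiled with 10x Genomics 3' v2 libraries, 1 per diet. The values that the authors deposited are unnormalized UMI counts, whole numbers for each gene in each barcode. Cell Ranger 2.1.0 is named in the submitters' processing notes, while genome build, annotation and barcode filter were not stated in the labels read here. The HFD library held 4539 barcodes and 68544729 UMIs, the chow library 6509 and 89292222. The members and gene lists were chosen with earlier results of these data known.

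For each library and class, UMI counts of its cells were added up and given as CPM with exact Poisson 95% intervals. Ratios had 0.5 counts added, and intervals are exact conditional (Clopper-Pearson) ones. Genes with a summed count of 50 or more were measured. With 1 library per group no test was made and no p-value is given. Named genes were the 12 highest and 12 lowest HFD to chow ratios among genes with 50 CPM in 1 library and a summed count of 100, leaving out predicted, mitochondrial and hormone genes, markers of other cell types and genes higher in endocrine cells; the 15 most enriched over endocrine cells among genes with 100 CPM; the 10 most abundant; and up to 3 largest ratios and 3 highest levels per list. Some genes that meet this rule are not reported here, in text or figures. Genes named beyond the rule, such as Vegfa, Nid1, Cd36 or those at 0 UMIs, were chosen with their values in view.

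Members were clustered with scanpy 1.11.5 (1000 variable genes, 15 components, 15 neighbours, Leiden resolution 0.5, igraph 0.11.9). Scrublet's automatic threshold marked 5 HFD (0.110%) and 3 chow barcodes (0.0461%) and so had not worked. No doublet was removed, and leaving out the top 5% of scores was an alternative. Macrophage-marked (71 HFD, 55 chow) and mesenchymal-marked barcodes (34 HFD, 24 chow) had 4 or more of 10 markers and 10 or more UMIs of them. Alternatives covered scaling (TMM in edgeR 4.0.16, median-of-ratios, totals without hormones), count minimum, added count, insulin and UMI thresholds, thinning and per-cell means. The intervals were tested on simulated independent Poisson counts, which do not cover UMIs held by few cells. Symbols Cavin1, Cavin2, Crel2 and Trac of the lists are not in the gene table.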

Additional observations from a re-analysis of the deposited data

How the results depend on the processing

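No paired analysis was possible because each diet has 1 library. The counts of genes at least 2-fold higher and lower, 45 and 67, were 22 and 34 with a summed count of at least 100, and 1356 and 1927 with no minimum other than 1 count. Leaving out clusters 4 and 5, an alternative chosen after seeing the data, gave 30 lower genes and a share of higher genes among both of 60.5%, against 40.2%. The mean of per-cell CPM gave 76 higher genes. Lists with a median of 0.25 or more in size numbered 9, and 15 with each cell thinned to 4000 UMIs. The chow share of endothelial cells was 3.42% with at most 5% mitochondrial UMIs and 2.46% without clusters 4 and 5. Genes at least 4-fold higher and lower than in endocrine cells numbered 896 and 2083 with totals without hormone genes. Over 12 alternatives, 1797 of 1884 recomputed ratios of named genes moved by less than their counting interval, and 87 by more. Of list medians 305 of 342 stayed close and 37 moved. The scaling alternatives (TMM, medians of ratios, totals without hormones) shift all genes alike, so a ratio taken relative to the median cannot change under them. A changed count minimum only shifts all gene ratios by the same amount. The numbers that stayed therefore include values fixed in advance and do not measure robustness to scaling. Of the 157 genes followed, none with a reported ratio of 2-fold or more changed sign under these alternatives. The remaining called genes were not followed. The median ratio of all genes was -0.0046 under TMM and -0.0053 under size factors from medians of ratios, against 0.062. List medians that turned direction were those of the insulin and IGF genes (-0.49 to 0.44), the VEGF and angiopoietin ligands (-0.20 to 0.20), lipid genes (-0.01 to 0.11) and oxidative phosphorylation (-0.04 to 0.01). The few positive cells limit Selp, seen in 2 HFD and 12 chow cells, also with each cell thinned to 4000 UMIs. Differences between mice cannot be seen in pooled libraries.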
